A study of Homo sapiens with 10 samples.

Results

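The mitochondrial ribosomal protein genes were taken as the protein-coding genes of GENCODE release 44 whose symbol is MRPL or MRPS followed by digits, with or without a final letter. This rule found 78 genes among 19962 protein-coding genes, of which 49 are named for the large subunit of the mitochondrial ribosome (MRPL) and 29 for the small subunit (MRPS). Their promoters were examined for peaks of Rb, the retinoblastoma tumour suppressor. A promoter spanned 2000 bp upstream to 500 bp downstream of any annotated transcript start, and an overlap of 1 bp with a peak was enough.

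Rb occupancy was profiled by CUT&RUN, an assay in which a nuclease tethered to an antibody releases the DNA around the bound protein. Both cell lines, OVCAR-3 and Kuramochi, are established lines of human ovarian cancer and carry the genotype label WT. The labels spell the names OVCAR3 and INX315. Each line received either DMSO, the solvent, or INX-315, an inhibitor of the cyclin-dependent kinase CDK2, at 300 nM, and both arms lasted 2 days. Each of the 4 combinations of line and treatment had 2 Rb libraries, given as biological replicates in the study's methods, and each line had 1 control library made with IgG2a from DMSO-treated cells. Nothing in the labels says how far apart the replicates were grown, so spreads between them may be partly technical. The question was where Rb sits on chromatin once CDK2 is inhibited.

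Mitochondrial ribosomes translate the few proteins that the mitochondrial genome encodes, all of them subunits of the oxidative phosphorylation complexes. Their RNA is made in the organelle, whereas every protein of the ribosome is encoded in the nucleus, translated in the cytosol and imported. Rb is best known for binding E2F factors at the promoters of genes for DNA replication, and its binding is blocked when cyclin-dependent kinases phosphorylate it. Promoters of nuclear genes for mitochondrial proteins are known instead for sites of NRF1, of GABP and related ETS factors, and of YY1.

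The Rb lists held 5221 to 8794 peaks in the 4 DMSO libraries and 13031 to 17281 peaks in the 4 INX-315 libraries, and the IgG2a lists held 257 and 195. Depth, the genome-wide mean number of fragments per base recovered from the lists, was 0.38 to 0.501 in the DMSO libraries and 0.216 to 0.421 in the INX-315 libraries, so that the longer lists belonged to the libraries that were on the whole shallower. Fold enrichment is the ratio, as the peak caller gives it, of summit fragments to local background, each plus 1. No IgG2a peak lay at any of the 78 promoters. For comparison, 19 of 20 listed replication genes regulated by E2F were bound under DMSO in each line. Of all protein-coding genes, 26.8% were bound in OVCAR-3 and 24.9% in Kuramochi. The list was chosen with earlier results of these data known, so it cannot serve as a test of the antibody. A gene was called bound when both libraries of a group had a promoter peak, gained when a line had one in both its INX-315 libraries and in none of its DMSO libraries, and lost in the reverse case. With 2 libraries against 2, presence or absence of a peak allows no test for a single gene.

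The strings that gave the promoters a sequence in common were looked for in the 200 bp around the summit of each gene's strongest promoter peak, on both strands of GRCh38. Such a window existed for 73 of the 78 genes and for 13730 protein-coding genes in all. The most frequent string was AAGATGGC, a core of sites for YY1, which stood in the windows of 11 of the 73 genes (15.1%) and in 2.31% of all windows. These 11 genes had 10 distinct sites, because MRPL46 and MRPS11 stand head-to-head and share 1 peak. In 9 of the 10 sites the ATG of the string was an annotated start codon. In 9 genes the string lay 9 to 86 bp downstream of the gene's own canonical transcript start, in an exon. The string thus mostly coincided with the start of translation, and whether YY1 binds there was not tested. Sites are shown to let the shared core be compared, each as 30 bases read 5′ to 3′ on the strand that carries the string, with the string in capitals.
MRPL22, chr5:154941097-154941126, plus strand: cgggagggcgaAAGATGGCggcggcagtac
MRPL35, chr2:86199477-86199506, plus strand: aggcgaaggtgAAGATGGCtgcctctgcct
MRPL38, chr17:75904860-75904889, minus strand: aggccggagggAAGATGGCggcgccctggt
MRPL45, chr17:38297170-38297199, plus strand: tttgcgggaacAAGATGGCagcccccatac
MRPL46 and MRPS11, chr15:88467362-88467391, minus strand: tgggagaacgaAAGATGGCggcgcccgtaa
MRPL49, chr11:65122333-65122362, plus strand: cgtagcaggtaAAGATGGCagctaccatgt
MRPS18B, chr6:30617852-30617881, plus strand: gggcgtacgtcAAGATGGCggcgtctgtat
MRPS30, chr5:44808949-44808978, plus strand: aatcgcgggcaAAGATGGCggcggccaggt
MRPS36, chr5:69217831-69217860, plus strand: tgatgggcagcAAGATGGCgtctgctagta

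E2F strings stood at 2 of these promoters, a share near that of all windows. The octamers TTTGGCGC, TTTCCCGC, TTTGCCGC and TTTCGCGC, the forms of the E2F consensus, occurred in the windows of MRPS18C and MRPS31 and of no other of the 73 genes (2.74%), against 4.05% of all windows. The string of MRPS18C lay in an exon of its head-to-head neighbour HELQ, a DNA helicase gene, and that of MRPS31 in an exon of MRPS31 itself. MRPS31 codes for a protein of the small subunit head. In OVCAR-3 its fold enrichment was 5.27 in 1 DMSO library, then 5.31 and 13.4 with the inhibitor, and in Kuramochi it was 5.07 in 1 DMSO library, then 15.7 and 9.05. The cell cycle homology region TTTGAA, a site of the DREAM complex, was present at MRPL50 alone (1.37%, against 3.36% of all windows). The NRF1 string GCATGCGC stood at MRPL17, MRPL24 and MRPL32 (4.11%, against 1.91%). At MRPL17 it occurred 3 times, and 2 of the 3 overlapped on opposite strands. The ETS string CCGGAAGT stood at MRPL27 and MRPS22 (2.74%, against 2.53%). A match is only a run of letters, and a window without a match says nothing of a factor with a looser site. One stretch is printed for each gene with an E2F, NRF1 or ETS string, to set the E2F strings beside those of the mitochondrial regulators.
MRPS18C (E2F), chr4:83455600-83455629, minus strand: tggggtgtattTTTGGCGCtcccaccgcgg
MRPS31 (E2F), chr13:40771078-40771107, minus strand: tcttcgcccccTTTCCCGCcaccctttgtc
MRPL17 (NRF1), chr11:6683365-6683394, plus strand: tttcagggaacGCATGCGCcttagctcgga
MRPL24 (NRF1), chr1:156741321-156741350, minus strand: ctccacgcagaGCATGCGCgggaatgtgcc
MRPL32 (NRF1), chr7:42932326-42932355, minus strand: ccctgctttcaGCATGCGCacaggcacaga
MRPL27 (ETS), chr17:50373174-50373203, minus strand: acttttcgagaCCGGAAGTgagtgatcgaa
MRPS22 (ETS), chr3:139343987-139344016, minus strand: agccacttgcgCCGGAAGTggttgggaggg

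Rb peaks lay at more mitochondrial ribosomal promoters under INX-315 than under DMSO in both lines. Of the 78 promoters, the DMSO lists of OVCAR-3 held 28 and 41 (30.1% and 37% of all genes), and its INX-315 lists 58 and 68 (56% and 64.9%). For Kuramochi the DMSO lists held 29 and 43 (26.3% and 39% of all genes) and the INX-315 lists 67 and 64 (59.8% and 55.3%). Each INX-315 library therefore had more of these promoters in its list than either DMSO library of its line. The same was true of all protein-coding genes.

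**Figure D1:**
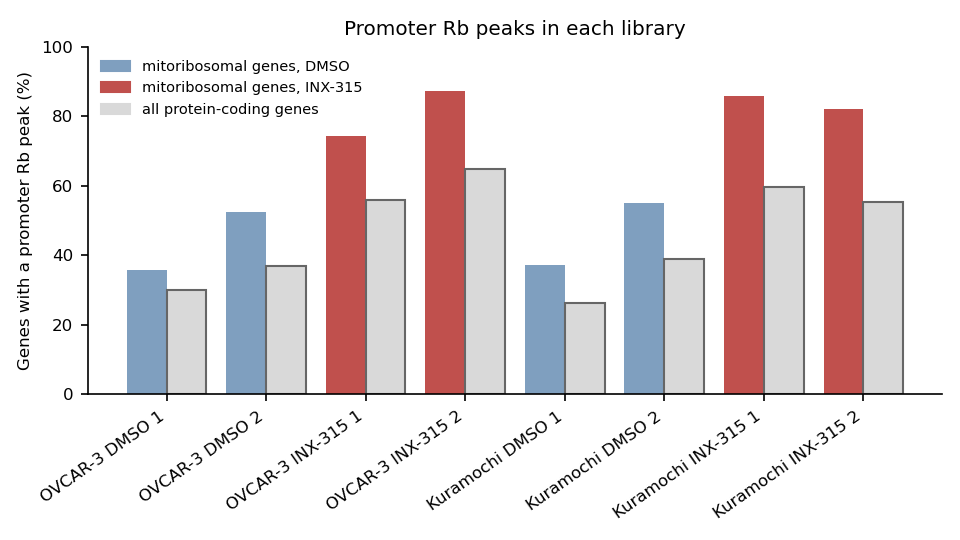
Percentage of the 78 mitochondrial ribosomal protein genes (coloured bars) and of the 19962 protein-coding genes (grey bars) with a promoter Rb peak in each of the 8 Rb libraries. The coloured bars run from 35.9% to 55.1% under DMSO and from 74.4% to 87.2% under INX-315, and each stands above the grey bar beside it. The grey bars run from 26.3% to 39% under DMSO and from 55.3% to 64.9% under INX-315.

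Counted by both libraries of a group, 27 of the 78 genes (34.6%) were bound in OVCAR-3 under DMSO, against a background of 26.8% over all protein-coding genes. With the inhibitor the number in this line was 58 (74.4%, against 55.5%). In Kuramochi 27 genes (34.6%, against 24.9%) were bound under DMSO and 61 (78.2%, against 53.2%) under INX-315. Expression was not measured here and all protein-coding genes include silent ones, so the higher share of the 78 cannot be told apart from a higher share of active promoters. The cytosolic ribosomal protein genes, which are 80 in number and highly expressed in most cells, went from 11 to 48 bound genes in OVCAR-3 and from 21 to 51 in Kuramochi. The 82 nuclear genes for oxidative phosphorylation subunits went from 18 to 60 and from 18 to 58.

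Many promoters were bound in both lines. Of the 78 genes, 17 were bound under DMSO in both lines (background 18.9%) and 53 under INX-315 in both lines (background 48.4%). All of those 17 bound under DMSO also had a peak in every INX-315 library, and so in all 8 Rb libraries (background 18.8%). These were MRPL11, MRPL12, MRPL18, MRPL21, MRPL24, MRPL32, MRPL34, MRPL37, MRPL49, MRPL51, MRPS6, MRPS12, MRPS18B, MRPS26, MRPS27, MRPS33 and MRPS34. At the other end, 5 genes had no peak in any Rb library (background 31.2%): MRPL3, MRPL19, MRPL23, MRPL52 and MRPS17. MRPL3 and MRPS17 are homologues of core proteins of the bacterial ribosome, MRPL23 sits at the exit of the peptide tunnel, and MRPL52 has no bacterial counterpart.

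**Figure D2:**
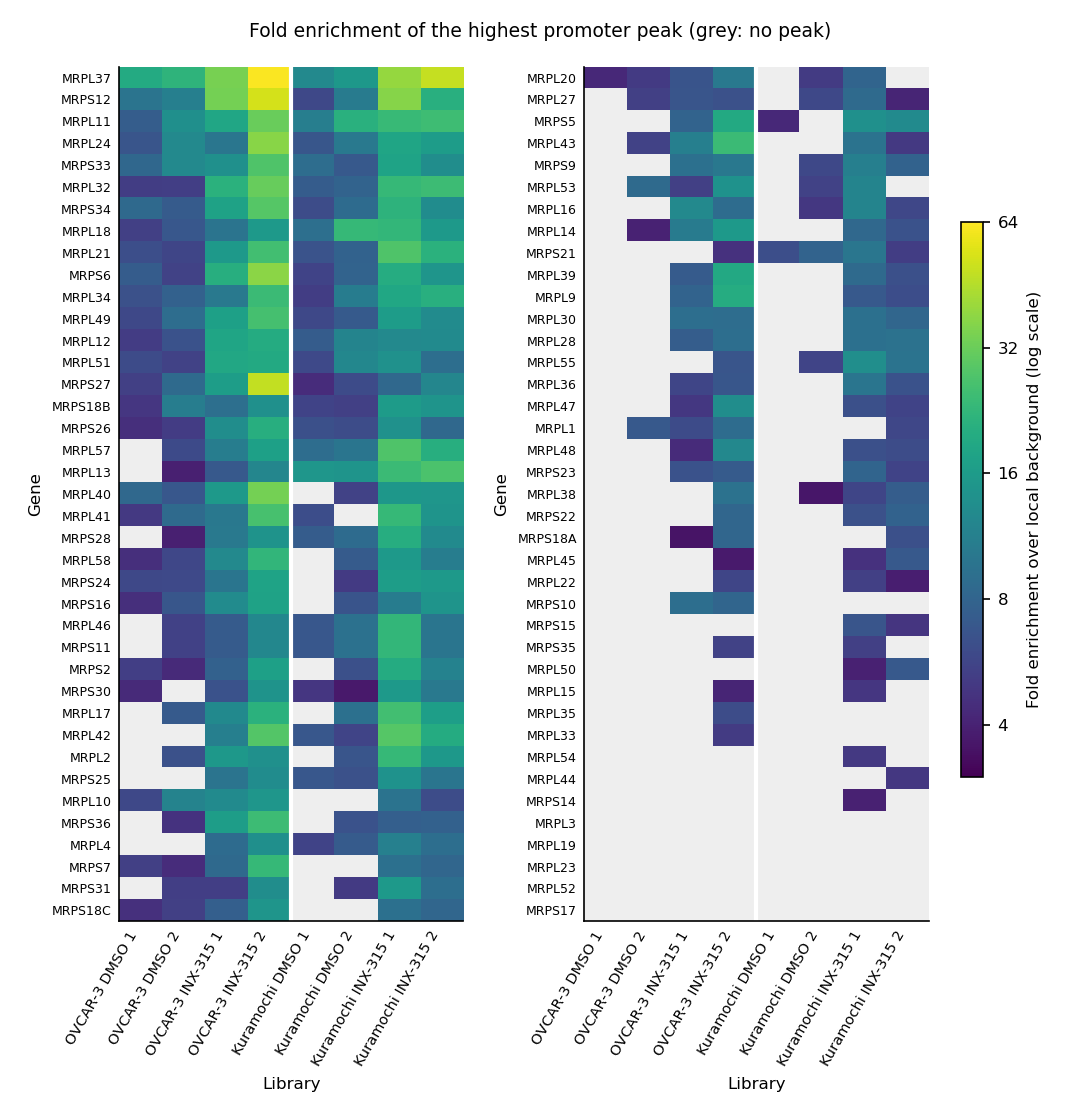
Fold enrichment (colour, log scale) of the highest promoter peak of each of the 78 genes (rows) in the 8 Rb libraries (columns, DMSO then INX-315 within each line), with grey for no peak. The 17 genes at the top of the left panel have a peak in all 8 libraries and the 5 at the foot of the right panel in none, and most of the grey among the others lies in the DMSO columns.

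Peaks were gained at 16 of the 78 promoters in OVCAR-3 (background 16.2%) and at 18 in Kuramochi (background 14.0%), and none was lost in either line (background 0.00501% in OVCAR-3 and 0.015% in Kuramochi). Among the genes with no DMSO peak, which could have gained one, 16 of 36 did so in OVCAR-3 (background 27.1%) and 18 of 33 in Kuramochi (background 23.5%). At 8 genes the peak was gained in both lines (background 5.56%): MRPL9, MRPL28, MRPL30, MRPL36, MRPL39, MRPL47, MRPL48 and MRPS23. Peaks at 18 genes were gained in 1 line only, for which no share of all genes was computed. The other 30 genes had a peak in some libraries without meeting any of these definitions.

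These counts moved with the length of the lists. When only as many top peaks were kept in each library as the shortest list of the line held, the inhibitor-treated OVCAR-3 cells had 25 bound genes (background 29.0%) and the Kuramochi cells 29 (background 25.1%). Under DMSO the equally long lists gave 25 and 24 (background 24.8% and 21.8%). Gains dropped to 1 gene in OVCAR-3 and 2 in Kuramochi (background 2.33% and 2.03%). Within lists of equal length the number of bound mitochondrial ribosomal promoters was about the same under both treatments. Leaving out the DMSO library with the longer list raised the gains to 30 for OVCAR-3 (background 25.8%) and 32 for Kuramochi (background 27.0%). Without INX-315 replicate 1 of OVCAR-3 there were 26 (background 24.8%). The background thus rose as well.

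Of the genes with a gain in each line, the 6 of highest mean percentile under INX-315 are described here. MRPL30, a large subunit protein with a bacterial homologue, reached 9.04-fold and 8.94-fold enrichment in treated OVCAR-3 cells and 9.25-fold and 8.22-fold in treated Kuramochi cells. MRPL28 had 7.44 and 9.02 in the first line, then 9.30 and 9.46. In both genes the 4 libraries were nearly level. MRPL39 had 7.18 and 19.0 in OVCAR-3, then 8.64 and 6.31. MRPL9 had 7.96 and 20.0, then 7.08 and 6.19. In MRPL39 and MRPL9 OVCAR-3 replicate 2 stood apart from the other 3 libraries and above its median over all genes of 16.2. MRPL36, one of the smallest proteins of the large subunit, had 5.67 and 6.83, then 9.85 and 6.50. Its values mixed sites, with summits from -1617 to 517 bp from its start and a peak shared with the promoter of NDUFS6. MRPS23 had 6.48 and 7.21, then 8.09 and 5.56.

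Gains in 1 line only were recorded at 8 genes for OVCAR-3 and 10 for Kuramochi. At 11 of these 18 the other line had a peak in at least 1 DMSO library. No share of all protein-coding genes was computed for these counts, so whether they exceed the background was not tested. For scale, the background of all gains, those shared by the lines included, was 16.2% for OVCAR-3 and 14.0% for Kuramochi. For gains in both lines the background was 5.56%. MRPL42 had no DMSO peak in OVCAR-3, where its fold enrichment was 11.3 and 28.1 with the inhibitor. Its Kuramochi values were 6.92 and 5.65 under DMSO, then 28.6 and 19.7, without overlap of the groups. MRPS5, a protein of the mRNA entrance, had 7.96 and 19.2 in the INX-315 libraries of OVCAR-3, and for Kuramochi 4.28 in 1 DMSO library followed by 13.9 and 13.0. The highest value of both genes lay in an INX-315 library. MRPS25 had 9.79 and 13.3 in OVCAR-3, beside 6.85, 6.43, 14.3 and 9.84 in the DMSO and INX-315 libraries of Kuramochi. The converse held for MRPS7 of the small subunit head, with 5.36, 4.42, 8.57 and 23.2 in OVCAR-3, beside 9.25 and 8.22 under INX-315 alone in Kuramochi. MRPS18C had 4.59, 5.33, 7.59 and 14.8 in OVCAR-3 and the same 9.25 and 8.22 in Kuramochi, since the summits of both genes, and of MRPL30, held equal whole numbers of fragments there, 29.6 and 41.7 times the background. MRPL10, a protein of the stalk, had 5.84, 11.8, 12.9 and 14.9 in OVCAR-3 and 9.58 and 6.09 under INX-315 in Kuramochi. In MRPS7, MRPS18C and MRPL10 both INX-315 libraries of OVCAR-3 were above its DMSO libraries. By the summit heights described below, such a separation held at 99.2% of all genes with a peak in every OVCAR-3 library. For Kuramochi the share was 97.4%. MRPS10, MRPL50 and MRPS15, chosen after their values were seen, had no peak at all in the other line. MRPS10 had 9.11 and 8.16 in OVCAR-3, and in Kuramochi MRPL50 had 3.99 and 7.09 and MRPS15 6.76 and 4.82. Whether gains differed between the lines was not tested.

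Some of the 78 genes were grouped by the place of the protein in the ribosome, for which the background shares are those of all protein-coding genes, for OVCAR-3 26.8% without and 55.5% with the inhibitor, and for Kuramochi 24.9% and 53.2%. The stalk, which recruits the translation factors, is built on MRPL10, MRPL11 and MRPL12: all 3 genes were bound in OVCAR-3 under both treatments, and in Kuramochi 2 under DMSO and 3 under INX-315. Around the exit of the peptide tunnel, where MRPL45 holds the ribosome to the inner membrane, 1 of 8 genes (MRPL24) was bound under DMSO in each line. Under INX-315, 4 of these 8 were bound in OVCAR-3 and 6 in Kuramochi. Of the 7 genes of the central protuberance, which include MRPL58, a peptidyl-tRNA hydrolase built into the ribosome, OVCAR-3 had 3 and then 6 bound and Kuramochi 2 and then 7. In the small subunit, the decoding protein MRPS12 and the mRNA entrance proteins MRPS5 and MRPS24 gave 2 and then 3 bound genes in OVCAR-3 and 1 and then 3 in Kuramochi. For the head of the small subunit, 2 and then 5 of 7 genes were bound in OVCAR-3 and 1 and then 4 in Kuramochi. The MRPS18 paralogues divide between the subunits, MRPS18A being a protein of the large one, and MRPS18B alone of the 3 was bound in all 4 groups.

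For the partners of the ribosome in mitochondrial translation, bound genes were more numerous under INX-315 than under DMSO, as they were among all protein-coding genes by the shares just given. Of 14 translation factor genes, 2 and then 11 were bound in OVCAR-3 and 4 and then 8 in Kuramochi. GFM2, which splits the ribosome after termination, was the single gene of these lists lost in a line: its fold enrichment was 3.94 and 4.94 under DMSO in Kuramochi with no peak under INX-315, and in OVCAR-3 it had no DMSO peak and 4.56 and 8.45 under INX-315. Of 17 mitochondrial aminoacyl-tRNA synthetase genes, 6 and then 13 were bound in OVCAR-3 and 8 and then 14 in Kuramochi. Genes for ribosome assembly and rRNA modification were bound at 12 and then 19 of 21 promoters in OVCAR-3 and at 9 and then 19 in Kuramochi. Of the 4 genes for mitochondrial transcription, 2 and then 4 were bound in OVCAR-3 and 2 and then 3 in Kuramochi. Among 5 further ribosomal proteins with other symbols, such as DAP3 and PTCD3, 1 and then 3 were bound in OVCAR-3 and 2 and then 3 in Kuramochi.

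Under DMSO, peaks at mitochondrial ribosomal promoters had a lower median fold enrichment than those at all promoters with a peak. There their median fold enrichment was 5.6 and 5.97 for OVCAR-3 and 6.53 and 7.14 for Kuramochi, beside 6.87, 7.19, 7.16 and 7.64 for all genes with a promoter peak in the same libraries. With the inhibitor it was 9.95, 14.6, 12.7 and 9.71 in the same order, beside 10.6, 16.2, 12 and 10.2. The median of the 78 genes was thus below that of all bound genes in 7 of 8 libraries, and above it in Kuramochi INX-315 replicate 1. The median percentile within the list, where 100 is the highest peak, was 36.9 and 43.3 in the DMSO lists of OVCAR-3, beside 56.4 and 58.2 for all genes, and 57.4 and 61.2 in its INX-315 lists, beside 60.7 and 65.1. For Kuramochi it was 48.2 and 56.2, beside 56.2 and 60.4, then 66.7 and 60.3, beside 64.3 and 62.5. The gap to all genes was widest in the DMSO libraries of OVCAR-3. These medians are over different genes in each library, because a gene counts only where it has a peak.

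MRPL37 ranked highest of the 78 genes, with a mean percentile of 95.2 over the 8 lists. It codes for a large subunit protein without a bacterial counterpart. Its fold enrichment in OVCAR-3 was 19.5 and 21.9 without the inhibitor and 34.2 and 62.9 with it. In Kuramochi it was 12.6 and 15.3, then 39.4 and 48.7. In both lines the groups did not overlap. By summit height this was so for 99.2% of all genes with a peak in every OVCAR-3 library, and for 97.4% in Kuramochi. The peak lay a median of 162 bp inside MRPL37, on the far side of its start from the neighbour CYB5RL.

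Among the 17 genes with a peak in all 8 libraries, the next in rank were MRPL11, MRPS12, MRPS33, MRPL24 and MRPS34, with mean percentiles of 85.5 to 71.1. MRPS12, which codes for a protein of the decoding centre, had fold enrichments of 9.77, 11.3, 33.6 and 52.7 in the DMSO and INX-315 libraries of OVCAR-3 and of 5.83, 10.7, 36.5 and 20.7 in those of Kuramochi. Its summit was 58.5 bp from the start of SARS2, the mitochondrial seryl-tRNA synthetase gene on the opposite strand, and the peaks of the 2 genes were the same. MRPL24 had 6.70, 12.6, 10.0 and 37.2 in OVCAR-3, then 6.80, 10.4, 18.2 and 16.2. Its groups overlapped by fold enrichment in OVCAR-3, where 1 INX-315 library was below 1 DMSO library. By summit height they did not, with 20.2 and 39.9 times the background under DMSO and 42.4 and 136 times under INX-315. MRPS33 had 8.31, 12.6, 14.0 and 27.5, then 9, 7.06, 17.8 and 13.4. MRPS34, whose strongest peak lay also in an exon of EME2, a DNA repair nuclease gene, had 8.55, 7.19, 17.4 and 28.5, then 6.11, 8.74, 21.8 and 13.3. In both of these genes the INX-315 libraries stood above the DMSO libraries of their line (background by summit height 99.2% in OVCAR-3 and 97.4% in Kuramochi).

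MRPL11 mixed 2 sites. Its canonical start had a peak in all 8 libraries, and a further transcript starts far upstream at PELI3. In both OVCAR-3 INX-315 libraries the peak at PELI3 was the higher, with fold enrichments of 18.4 and 31.9, and the stronger of these summits lay in an exon of PELI3. At the canonical start alone the values were 7.37, 13.8, 9.18 and 23 in OVCAR-3 and 11.1, 21.0, 23.5 and 24.7 in Kuramochi. There the lower INX-315 library of OVCAR-3 lay between the DMSO libraries. MRPL34 had its highest peak away from the canonical start in 4 of 8 libraries, the strongest summit being in an intron of ABHD8. MRPS27 had its highest peak in all 8 libraries at an internal start, a median of 11988 bp into the gene, and a peak at its canonical start in 5 libraries. For the remaining 70 genes with a peak, the highest peak overlapped the promoter of the canonical start in every library that had one. That promoter is wide, and its summits were not all close to the start. The summits of MRPL36 ran from -1617 to 517 bp from its start, and the only summit of MRPL54 lay at -1195 bp.

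A start on the opposite strand within 1000 bp upstream, or overlapping by up to 100 bp, was found for 26 of the 78 genes. Of these 26, OVCAR-3 had 14 bound under DMSO and 24 with the inhibitor, and Kuramochi 13 and 25. Of the other 52 genes, OVCAR-3 had 13 and 34 bound, and Kuramochi 14 and 36. None of the 26 and 5 of the 52 lacked a peak in every library, and 9 and 8 had one in all 8. The 9 include MRPS27, whose highest peak lay at an internal start in all 8 libraries and whose canonical start had a peak in 5. A shared promoter has 2 starts, and the part of this in the counts was not tested. The share bound among all head-to-head protein-coding genes was not computed. Whether the difference between the 26 and the 52 is particular to these genes was therefore not tested. MRPL46 and MRPS11 share a peak and are each counted among the 26. For 15 of the 26 genes the median summit lay nearer to the neighbour's start than to their own. One of these was MRPS11, whose neighbour MRPL46 is itself a mitochondrial ribosomal protein gene.

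The neighbours have varied work. At MRPL40 the summit lay at -626 bp from its own start, 186 bp from the start of HIRA, a histone chaperone gene, and at MRPL18 at -591 bp, 274 bp from TCP1, a chaperonin subunit gene. At MRPL13 it was 50 bp from MTBP, at MRPL27 93 bp from EME1, which is active in DNA repair, and at MRPS18C 81 bp from HELQ. At MRPL47 it lay 137 bp from NDUFB5, a complex I subunit gene. By contrast the summits of MRPL57, beside the kinetochore gene SKA3, of MRPL51, beside the condensin gene NCAPD2, of MRPL43, beside the mitochondrial helicase gene TWNK, and of MRPL49, beside FAU, were nearer to the ribosomal gene. The peak of 33 genes lay in the promoter of another protein-coding gene as well, and none of these was on the list of replication genes regulated by E2F.

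**Figure D3:**
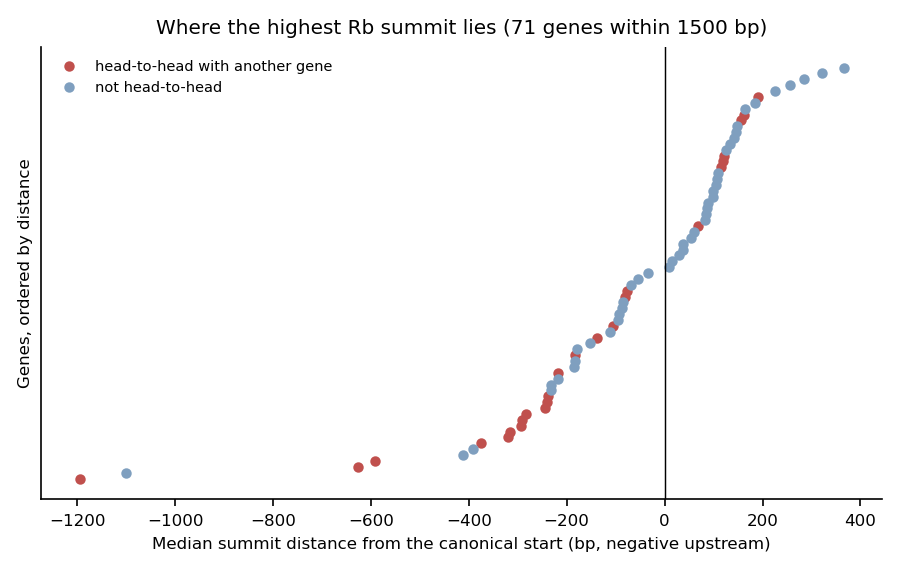
Median distance of the highest Rb summit from the canonical start (x axis, bp, negative upstream) for the 71 genes with a median within 1500 bp, ordered by distance, in red for head-to-head genes. The summit lay upstream in 18 of 25 head-to-head genes and in 18 of the 46 others.

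Most summits lay close to the starts. The median summit was within 250 bp of the canonical start in 55 of 73 genes and more than 1000 bp away in 4. A peak had to overlap a promoter to be counted, and these distances were not computed for all genes. Over the 73 genes the median distance was -33 bp, with quartiles of -218 and 116 bp. The 200 bp windows had a median of 16 CpG dinucleotides, beside 20 for all genes with a peak, and a GC content of 63.5%, beside 69.5%.

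Heights were then compared between treatments at the 17 promoters with a peak in all 8 libraries. Here the height is the whole number of fragments at the summit divided by the genome-wide mean of its library. The remaining genes, those with gained peaks included, had no height in some library and could not be fitted. All 17 rose under INX-315 (limma over both lines, with line as a covariate, Benjamini-Hochberg adjusted over 3762 genes, adjusted p of at most 0.00193). The difference on the log2 scale ranged from 0.93 for MRPL18 to 2.42 for MRPL32, or 1.91-fold to 5.35-fold, with an SE of 0.27 to 0.30. This says little of the 17 themselves, because 99.7% of the 3762 genes rose in the same test. The median was 1.64 over all genes and 1.53 over the 17. A shift shared by a whole library counts as a change at each gene in this fit, and the spread borrowed over genes covers it poorly. In OVCAR-3, both INX-315 heights were above both DMSO heights at 27 of 27 promoters with a peak in its 4 libraries (background 99.2%), and in Kuramochi at 26 of 27 (background 97.4%).

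**Figure D4:**
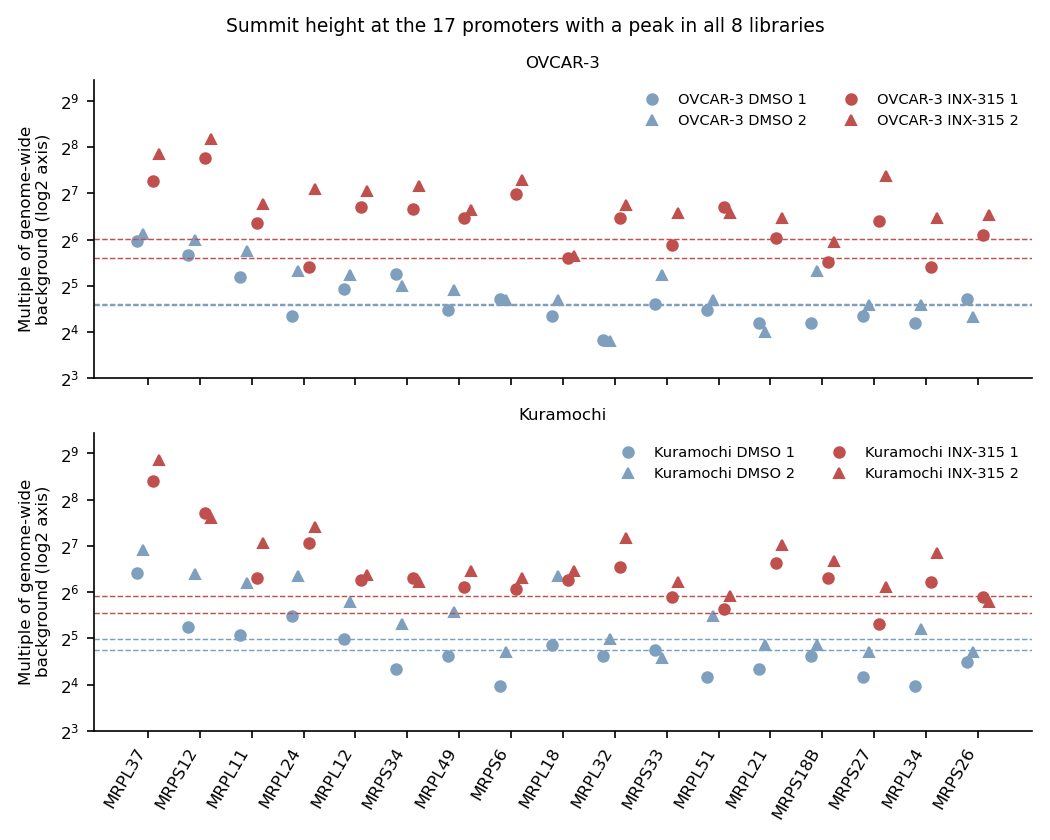
Summit height as a multiple of the genome-wide background (log2 axis) at the 17 promoters, with OVCAR-3 above and Kuramochi below, DMSO in blue and INX-315 in red, and a circle or triangle for replicate 1 or 2. Dashed lines mark each library's median over all genes with a promoter peak. MRPL37 and MRPS12 stand highest, and in Kuramochi 1 DMSO value of MRPL18 lies among its INX-315 values.

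MRPL32 rose the most. It codes for a large subunit protein that is matured by a protease of the inner membrane before assembly. In OVCAR-3 its height was 14.1 and 14 times the background under DMSO and 88.1 and 107 times with the inhibitor, and 24.7, 31.6, 93.8 and 144 times in Kuramochi. The difference was 2.42 (SE 0.30, limma adjusted p = 3.17e-14). MRPL21 went from 18.2 and 16 to 65.3 and 88 and, for Kuramochi, from 20.2 and 29 to 98.8 and 130, a difference of 2.19. MRPS6, a small subunit protein with a bacterial homologue, went from 26.3 and 25.9 to 127 and 157 and from 15.7 and 26.3 to 66.7 and 78.7, a difference of 2.13. The differences of MRPS12, MRPS27 and MRPL34 were 1.99, 1.85 and 1.75.

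Set against the median gene, few of the 17 stood out. With each library centred on its median over the 3762 genes, 7 of the 17 lay above the median gene and 10 below. MRPL32 was higher than the median gene by 0.74 on the log2 scale (SE 0.20, limma adjusted p = 0.0137), as were 4.92% of all genes by this test. MRPL18 and MRPL11 were lower (background 9.01%). MRPL18, a protein of the central protuberance, differed from the median gene by -0.75 (SE 0.21, limma adjusted p = 0.0175). Its heights were 20.2, 25.9, 48.9 and 49.9 in OVCAR-3 and 29.2, 81.6, 76.6 and 88.0 in Kuramochi, where the groups overlapped. The relative difference of MRPL11 was -0.61 (limma adjusted p = 0.0293), and at its canonical start alone -0.93 (limma adjusted p = 0.00348). With local in place of genome-wide background none of the 17 passed, against 3.24% of all genes. The limma adjusted p was then 0.0969 for MRPL32, 0.366 for MRPL18 and 0.943 for MRPL11. When each library was left out in turn, MRPL32 was called in 6 of 8 fits, MRPL18 in 5 and MRPL11 in 3.

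**Figure D5:**
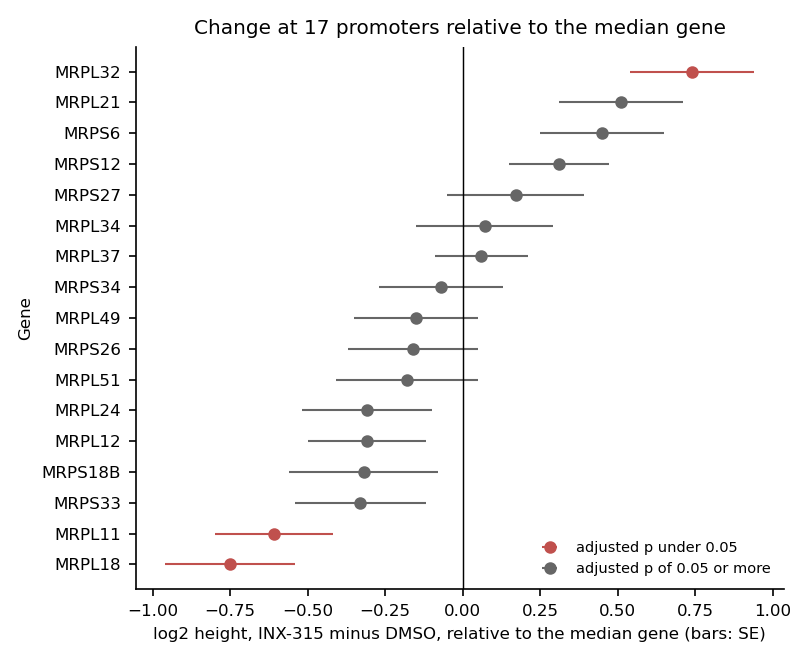
Change of the summit height under INX-315 relative to the median gene (x axis, log2, with bars of 1 SE) at the 17 promoters over both lines, in red where the limma adjusted p is under 0.05. The values run from -0.75 for MRPL18 to 0.74 for MRPL32, and 14 of the 17 are grey.

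The treatment difference was compared between the lines by the interaction of line and treatment. No gene of the 3762 passed (background 0%), and 102 had an unadjusted p under 0.05, none of them among the 17. The difference, Kuramochi minus OVCAR-3, ranged from -1.17 for MRPS27 to 0.77 for MRPS18B on the log2 scale, with an SE of 0.58 to 0.62 (limma adjusted p of at least 0.998). In OVCAR-3 the height of MRPS27 was 20.2 and 23.9, then 84.8 and 166 with the inhibitor, and 18, 26.3, 39.5 and 69.5 in Kuramochi. A difference of that size between the lines was not detectable with 2 libraries a group.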

How the data were processed

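The study's methods and the submitters' processing notes state that reads were trimmed, aligned to hg38 with Bowtie2 (2.3.4.1) and freed of mitochondrial and blacklisted reads, with duplicates kept. The authors called peaks library by library in MACS2 (2.2.7.1) at a q-value of 0.05, against the IgG2a library of the same line. In the deposited lists each peak has a fold enrichment, a ratio computed by the authors' caller, and its −log10 p-value and −log10 q-value. The score column of the deposited lists, a rounded form of the q-value, was not needed. The files hold no read totals. Whole fragments at each summit were recovered from the fold enrichment and p-value within a relative tolerance of 3e-05, singly for at least 98.6% of peaks. The genome-wide background of a library was its lowest recovered local background. Kept duplicates mean that fragments need not be independent molecules.

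Promoters came from GENCODE release 44 on the same assembly. The log2 of the heights was fitted with limma (3.58.1, R 4.3.3), which uses values only where a peak was called, so genes without a peak in all 8 libraries could not be fitted. The fit and the recovery were tested on simulated data. Replicate numbers carried no pairing in the labels. The genes named with values were the 6 highest of those with peaks in all 8 libraries, the 6 highest gained in both lines, the 3 highest gained in each line alone, all that were lost in a line or had no peak, the 6 largest differences in the fit, those with an E2F string and those sharing a peak with an E2F-regulated replication gene (none). Others are marked where they appear. The 78 genes, the gene lists and the strings were chosen with earlier results of these data known, and the grouping by place in the ribosome, the heights relative to the median gene and the fit at the canonical start after these values were seen. The sequence of 1 site is not reported here.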

Additional observations from a re-analysis of the deposited data

How the results depend on the processing

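The numbers of bound and gained genes stayed within 1.5 times with a q-value of at most 0.001, with the summit inside the promoter, with the canonical start and with a promoter of 500 bp on either side. With equally long lists, 25 genes were bound under INX-315 in OVCAR-3 (background 29.0%) and 29 in Kuramochi (background 25.1%). Gains were 1 and 2 (background 2.33% and 2.03%). When each replicate was left out in turn, OVCAR-3 had 28 to 41 bound genes under DMSO, 58 to 68 under INX-315 and 16 to 30 gained, and Kuramochi 29 to 43, 64 to 67 and 20 to 32. The numbers moved because 1 library then decided a group.

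The 17 genes higher under INX-315 were 17 in every fit without 1 replicate (background 98.8% to 99.8%). A fit of OVCAR-3 alone, where more genes had a peak in all libraries, called 27 (background 96.7%). A fit of Kuramochi alone called 25 of 27 (background 91.9%) and lost MRPL18 (0.75, limma adjusted p = 0.0988). Centring each library on its median left 3 genes called (background 13.9%), of which 1 was higher (MRPL32) and 2 were lower (MRPL11 and MRPL18). The sign then changed at 10 genes: MRPL11 (-0.61), MRPL12 (-0.31), MRPL18 (-0.75), MRPL24 (-0.31), MRPL49 (-0.15), MRPL51 (-0.18), MRPS18B (-0.32), MRPS26 (-0.16), MRPS33 (-0.33) and MRPS34 (-0.07). With heights relative to the median gene, local background left 0 of these 3 and called 3.24% of all genes. It turned the sign of MRPL49 (0.18) and MRPS34 (0.20), for which the cause was not tested. Without 1 replicate 1 to 4 genes differed from the median gene (background 6.7% to 13.8%). The number was 1 without OVCAR-3 INX-315 replicate 1 or 2, Kuramochi DMSO replicate 2 or Kuramochi INX-315 replicate 2.

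With the replicate number as a block, 17 of 17 genes were higher (background 99.8%) and 3 differed from the median gene (background 13.9%). The deviations of same-numbered libraries correlated at -0.0517 in OVCAR-3 and -0.0107 in Kuramochi, so the numbers were not taken as a pairing. Peaks carry few fragments at these depths, and a promoter without a peak may hold Rb below the caller's threshold.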
